A study of Mus musculus with 6 samples.

Results

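A set of 10 genes was followed: *Actn2*, *Ldb3*, *Tcap*, *Myoz2*, *Csrp3*, *Ankrd1*, *Ankrd23*, *Xirp1*, *Xirp2* and *Sorbs2*, which encode proteins of the Z-disc or proteins known to respond there to mechanical stress. They were chosen by name, by matching their symbols to the gene column of the deposited table, and all 10 were found among its 20066 genes. The table comes from RNA sequencing of cardiomyocytes (CMs) isolated from C57BL/6 mice on postnatal day 0 to 1 and kept for 96 h in medium with a form of α-ketoglutarate (αKG) that enters cells or with the vehicle dimethylsulfoxide (DMSO). αKG is a metabolite of the Krebs cycle. Each group held 3 libraries, the labels name no genotype beyond the strain, and they give 100 µM αKG, whereas the study's methods give another concentration. The cells came from dissociated hearts, and no step that enriched CMs was described, so other heart cells can be present. The study used these libraries to ask how αKG affects the maturation and proliferation of CMs.

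The Z-disc is the border of the sarcomere, the contractile unit of muscle. Actin filaments of neighbouring sarcomeres are anchored there by α-actinin, and the giant protein titin runs from the Z-disc towards the middle of the sarcomere. The Z-disc also carries proteins that are thought to sense or report load, and several of their genes are known to be switched on in stretched or overloaded heart muscle.

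The libraries held an estimated 3725428 to 4429134 reads in genes, and their normalized totals differed by up to 2.41%. αKG replicate 3 stood apart from its group. Its log2 values correlated across genes at 0.977 to 0.98 with the DMSO libraries but at 0.962 and 0.963 with αKG replicates 1 and 2. Of the cell type markers, all 12 CM genes were present, with summed normalized read counts of 29469 to 30207 in DMSO and 30561 to 35026 in αKG, and *Ryr2*, *Myh6* and *Myom1* had the highest means. *Myom1* alone passed, as higher (8.33% of the 12, against 3.78% of all genes and 5.96% of those that averaged 100 or more). The log2 fold change was positive in 10 and negative in 2, with a median of 0.08 against 0.04 for all genes. Fold changes given below relative to the CM markers are lowered by this rise. All 12 endothelial markers were present too, and 8 of them fell, where 0.952% of all genes did. Their sums were 2098 to 2238 in DMSO and 1441 to 1569 in αKG. *Flt1*, *Tek* and *Vwf* had positive log2 fold changes and did not pass. *Flt1*, the endothelial marker with the highest mean, had 485, 510 and 499 in DMSO and 733, 719 and 411 in αKG. The 10 fibroblast markers summed to 3291 to 3490 in DMSO and to 7358, 7196 and 3380 in αKG replicates 1 to 3, and none passed the test. The 10 epicardial markers summed to 483 to 519 in DMSO and to 1279, 1238 and 456 in αKG, and none passed. The 10 smooth muscle and pericyte markers summed to 4501 to 4673 in DMSO and 4874 to 5309 in αKG. Of these, 2 rose, *Cnn1* and *Cspg4*, where 2.83% of all genes did. Of 12 skeletal muscle markers 6 were listed, with sums of 56 to 94 in DMSO and 98 to 133 in αKG, and the defining *Myod1*, *Myog* and *Pax7* were not among them. Of 12 macrophage markers 5 were listed, with sums of 23 to 35 and 26 to 41. The part that the mixture of cell types plays in the results below was not tested.

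Of the 10 genes, 5 rose with αKG and 0 fell, as judged by limma on log2 values with Benjamini-Hochberg adjustment over all genes. *Xirp2* rose most, to 3.22-fold of DMSO, followed by *Ankrd23* at 2.64-fold, *Sorbs2* at 1.49-fold, *Csrp3* at 1.24-fold and *Ankrd1* at 1.23-fold. Of all genes, 3.78% passed this test, 2.83% as higher and 0.952% as lower, and of the 8295 genes that averaged 100 normalized reads or more, 5.96% passed. *Actn2*, *Ldb3*, *Tcap* and *Xirp1* differed from DMSO by 0.14 or less on the log2 scale and did not pass. *Myoz2*, at 1.19-fold, missed the threshold with an adjusted p of 0.0771. The 3 αKG libraries lay wholly above the 3 DMSO libraries in 7 of the 10 genes and wholly below them in 2, 9 in all, against 13.7%, 14.6% and 28.3% of all genes. At an unadjusted p under 0.05 there were 8 genes, 7 higher and 1 lower, against 28.1% of all genes. The median log2 fold change was 0.27 over the 10 genes and 0.04 over all genes. As the RNA came from whole cultures, fewer cells of a type and less RNA per cell cannot be told apart. The study describes its samples of cultured newborn CMs as separate isolations, each made from hearts that were pooled, and does not say which isolation gave which library, so the p-values measure the spread between these libraries and not between single animals.

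**Figure D1:**
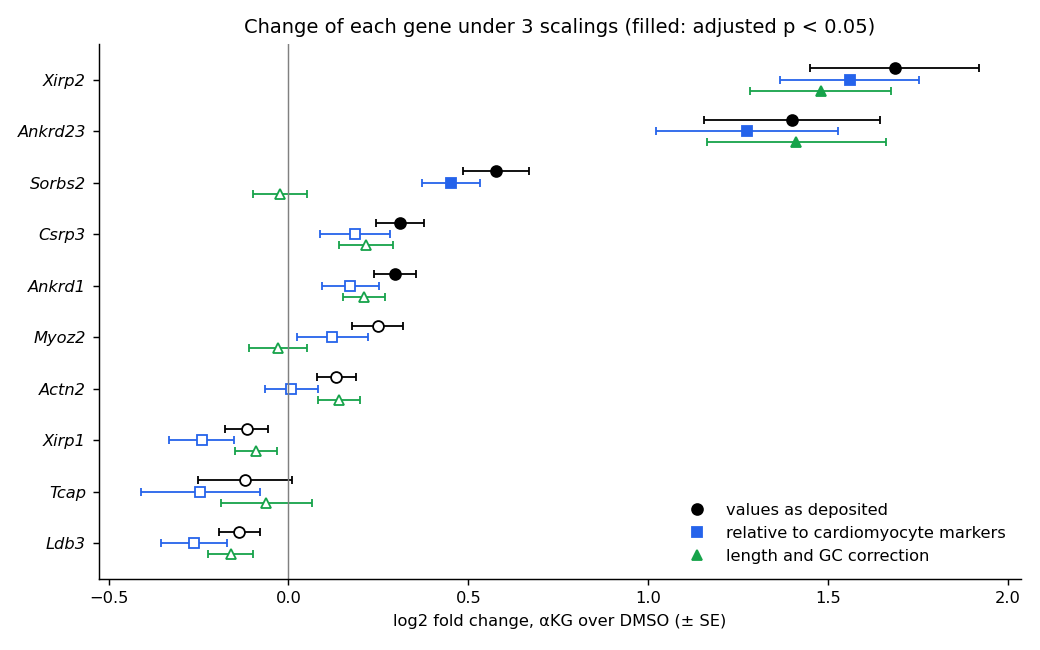
Log2 fold change (horizontal axis, ± SE) of each of the 10 genes, αKG over DMSO, from the values as deposited (circles), relative to the CM markers (squares) and after a length and GC correction (triangles), filled where the limma adjusted p is under 0.05. *Xirp2* and *Ankrd23* stay at 1.28 or more and filled under all 3, whereas *Sorbs2* and *Myoz2* move to nearly 0 under the correction.

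The 5 calls held with all 6 libraries and without αKG replicate 3, but with no other single library left out. Without any 1 of the other 5 libraries limma called no member, although the unadjusted p of the 5 genes was then 0.000205 to 0.00955. Across the table, 152, 3 and 4 genes were called without DMSO replicates 1, 2 and 3, and 0 without αKG replicate 1 or 2. Without αKG replicate 3, 9 members were called, 7 higher and 2 lower, all but *Tcap*, and 7466 of all genes (37.2%) were called with them. With DMSO replicates 2 and 3 averaged, which differed little more than sampling noise over 12056 genes (chi-square of 1.02 per gene, where other DMSO pairs gave 1.46 and 1.99), no member was called and 19 genes were called in all. Without the variance trend in limma, 0 members and 27 genes in all were called, with adjusted p of 0.109 to 0.201 for the 5 genes.

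**Figure D2:**
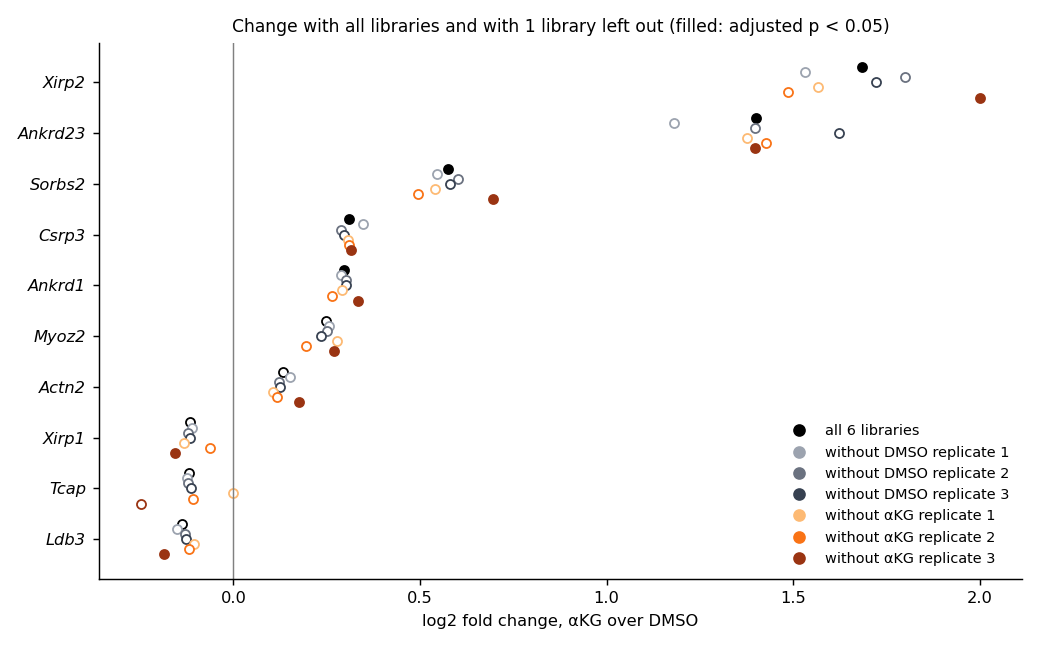
Log2 fold change of each gene with all 6 libraries and with each library left out in turn (1 colour per library), filled where the limma adjusted p is under 0.05. Every value for the 5 called genes stays above 0, and *Tcap* moves from its main value of -0.12 to nearly 0 without αKG replicate 1.

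The scaffold of the Z-disc was considered first. *Actn2* (ENSMUSG00000052374, chr13:12269426-12340760 in GRCm38, minus strand) encodes the muscle α-actinin that crosslinks actin filaments. Its normalized read counts, given here and for the other genes in the order of replicates 1, 2 and 3, were 2378, 2284 and 2288 in DMSO and 2635, 2597 and 2397 in αKG. All αKG libraries lay above all DMSO libraries, but αKG replicate 3 was within 19 reads of DMSO replicate 1. The means were 2317 ± 53.2 and 2543 ± 128 (SD, n = 3 libraries each), a log2 fold change of 0.13 ± 0.06 (SE; 95% interval 0.01 to 0.26) that did not pass (limma adjusted p = 0.154). Scaled to the CM markers, the log2 fold change was 0.01.

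*Ldb3* (ENSMUSG00000021798, chr14:34526603-34588682, minus strand) encodes a PDZ and LIM domain protein, also called ZASP or Cypher, that binds α-actinin. It was the highest of *Actn2*, *Ldb3*, *Tcap* and *Xirp1* by mean read count. It had 2869, 2956 and 2968 normalized reads in DMSO and 2555, 2598 and 2853 in αKG. All αKG libraries lay below all DMSO libraries, and αKG replicate 3 came within 16 reads of DMSO replicate 1. The means were 2931 ± 54.0 and 2669 ± 161, and the log2 fold change of -0.14 ± 0.06 (95% interval -0.26 to -0.01) did not pass (limma adjusted p = 0.152).

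*Tcap* (ENSMUSG00000007877, chr11:98383811-98384953, plus strand) encodes telethonin, the small cap of titin's end in the Z-disc. Its counts were 205, 206 and 208 in DMSO and 161, 187 and 227 in αKG. The DMSO libraries were nearly equal and lay inside the range of the αKG libraries, which fell on both sides of them. The log2 fold change was -0.12 ± 0.13 (95% interval -0.41 to 0.17, limma adjusted p = 0.573), and it came to -0.002 without αKG replicate 1. *Myoz2* (ENSMUSG00000028116, chr3:123006206-123035015, minus strand) encodes calsarcin-1, which tethers the phosphatase calcineurin to α-actinin. Its counts were 621, 615 and 603 in DMSO and 698, 783 and 706 in αKG, so all αKG libraries lay above all DMSO libraries. The means were 613 ± 9.17 and 729 ± 46.9, a log2 fold change of 0.25 ± 0.07 (95% interval 0.09 to 0.41).

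Genes of proteins known for a part in sensing load came next. *Csrp3* (ENSMUSG00000030470, chr7:48830398-48848033, minus strand) encodes muscle LIM protein, whose loss gives a dilated heart in mice. Its counts were 652, 599 and 606 in DMSO and 771, 768 and 763 in αKG. The αKG libraries were within 8 reads of each other and all above the DMSO libraries, and αKG replicate 3 lay with the other 2. The means were 619 ± 28.8 and 767 ± 4.04, and the log2 fold change was 0.31 ± 0.07 (limma adjusted p = 0.0424). The call was lost relative to the CM markers, where the log2 fold change was 0.18, and without any single library other than αKG replicate 3 (log2 fold changes of 0.29 to 0.35).

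*Ankrd1* (ENSMUSG00000024803, chr19:36111961-36120099, minus strand) encodes the cardiac ankyrin repeat protein CARP, which binds titin and also enters the nucleus. It had 1314, 1341 and 1340 normalized reads in DMSO and 1651, 1710 and 1551 in αKG. The DMSO libraries differed by at most 27 reads, and the lowest αKG library was 210 reads above the highest of them. The means were 1332 ± 15.3 and 1637 ± 80.4, and the log2 fold change was 0.30 ± 0.06 (limma adjusted p = 0.0354). Relative to the CM markers it was 0.17 and not called, and without any single library other than αKG replicate 3 it was 0.26 to 0.30 and not called.

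*Ankrd23* (ENSMUSG00000067653, chr1:36530188-36536883, minus strand) encodes a relative of CARP, also called DARP. It was the lowest of the 10 genes, with counts of 19, 26 and 36 in DMSO and 73, 68 and 71 in αKG. The αKG libraries were close together, αKG replicate 3 included, and the lowest of them was above the highest DMSO library by 32 reads. The means were 27 ± 8.54 and 70.7 ± 2.52, and the log2 fold change was 1.40 ± 0.24 (95% interval 0.85 to 1.95, limma adjusted p = 0.027). An estimated 20 reads stood behind the lowest library, for which counting alone gives a coefficient of variation of 22.4%. The log2 fold change was 1.18 to 1.62 with any single library left out, and the call was lost without each library but αKG replicate 3.

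The Xin proteins bind actin and lie at the intercalated disc as well as near the Z-disc. *Xirp2* (ENSMUSG00000027022, chr2:67173834-67526615, plus strand), also called Xinβ or myomaxin, had 1243, 1798 and 1617 normalized reads in DMSO and 5817, 6504 and 3182 in αKG. All αKG libraries lay far above the DMSO libraries, and αKG replicate 3 lay between. On the log2 scale it was 1.05 above the DMSO mean, against 1.92 and 2.08 for αKG replicates 1 and 2. The means were 1553 ± 283 and 5168 ± 1754, and the log2 fold change was 1.69 ± 0.23 (95% interval 1.16 to 2.21, limma adjusted p = 0.0111). It was 2.0 without αKG replicate 3 and 1.49 to 1.80 without any other library, where the call was lost. Relative to the CM markers it was 1.56 and still called.

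*Xirp1* (ENSMUSG00000079243, chr9:120013755-120023598, minus strand), encodes Xinα. It had 2532, 2500 and 2522 normalized reads in DMSO and 2372, 2154 and 2454 in αKG. All αKG libraries were below all DMSO libraries, with αKG replicate 3 the nearest. The means were 2518 ± 16.4 and 2327 ± 155, a log2 fold change of -0.12 ± 0.06 (95% interval -0.25 to 0.02) that did not pass (limma adjusted p = 0.228).

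*Sorbs2* (ENSMUSG00000031626, chr8:45507788-45827906, plus strand) encodes ArgBP2, an adaptor of actin-based structures with SH3 domains. It had the most reads of the 10 genes, 4041, 4370 and 4238 in DMSO and 6616, 7047 and 5324 in αKG. All αKG libraries lay above the DMSO libraries, with αKG replicate 3 nearest to them. The means were 4216 ± 166 and 6329 ± 897, and the log2 fold change was 0.58 ± 0.09 (limma adjusted p = 0.0193). It was 0.49 to 0.70 with any single library left out, and the call was lost without each library but αKG replicate 3. An annotated feature of unknown function inside a *Sorbs2* intron, *Gm45457* (chr8:45779228-45782316, same strand), had 205, 242 and 223 normalized reads in DMSO and 536, 593 and 295 in αKG, higher in every αKG library. The antisense *Sorbs2os*, whose exons overlap those of *Sorbs2*, had 9 to 14 reads per library, and the antisense *Gm13601* of *Xirp2* had 0 to 4. The study names a stranded library kit for adult CMs, but the sources used here do not say that counting used strand. As reads that fit several genes were left out, those in exons shared by such pairs would be lost if strand was not used.

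**Figure D3:**
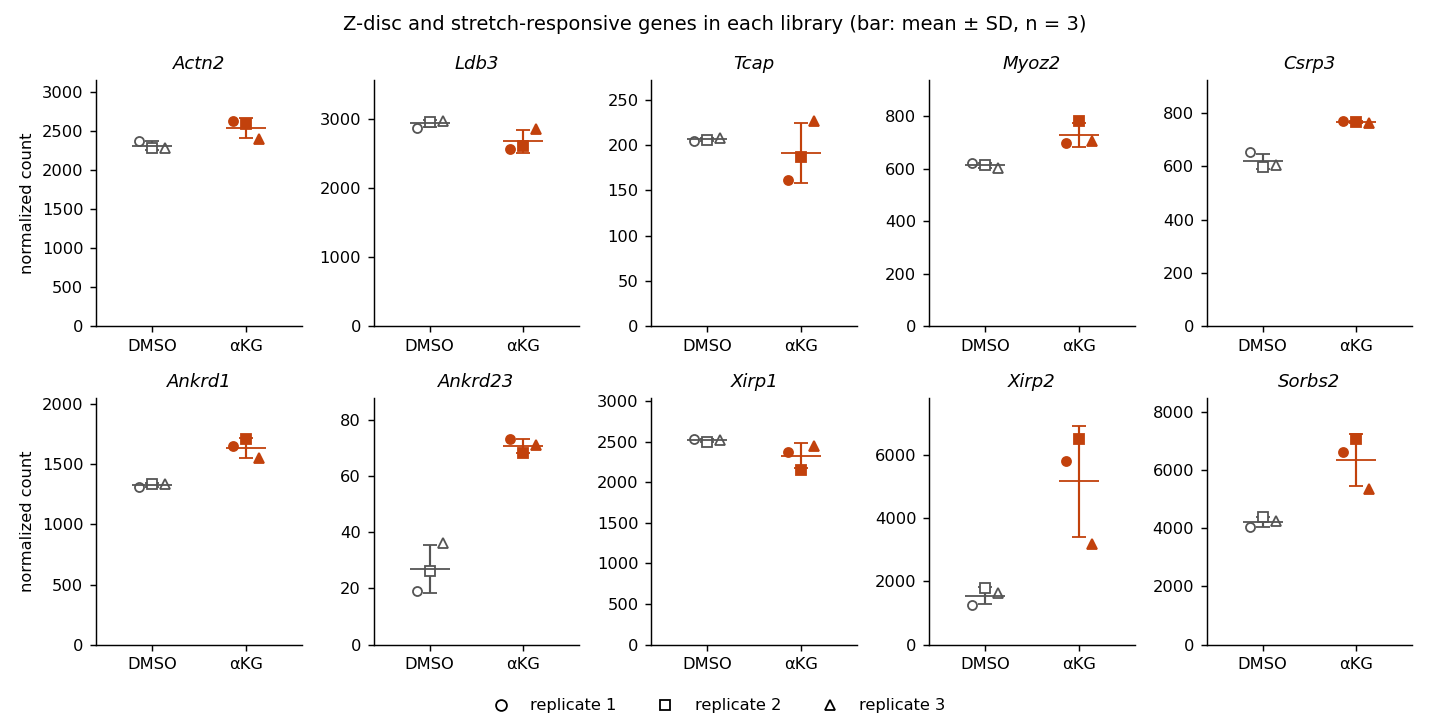
Normalized read counts of the 10 genes in each of the 6 libraries, 1 panel per gene with its own axis from 0, DMSO as open and αKG as filled symbols, with bars for the mean ± SD (n = 3). The groups overlap only in *Tcap*, and αKG replicate 3 lies between the DMSO mean and both other αKG libraries in 7 of the 10 panels.

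The length and base composition of the transcripts moved with the fold changes in these libraries. Over the genes that averaged 100 or more, the log2 fold change correlated with summed exon length (Spearman 0.33, 8295 genes, all sharing the same 6 libraries). Among genes that averaged 10 or more, the 1082 under 40% GC had a median of 0.22, against -0.13 in the 2683 over 55%. Summed exons come to 27.9 kb in *Sorbs2*, 12.0 kb in *Xirp2* and 3.42 kb in *Myoz2*. GC, taken from the longest transcript of each gene, was 37.6%, 42.2% and 39.7% in these genes. In *Tcap* and *Xirp1* it was 61.3% and 57.1%. With length and GC fitted out of each library, a setting added after the data were seen, *Sorbs2* went from 0.58 to -0.02 and *Myoz2* from 0.25 to -0.03 on the log2 scale. The same correction left *Xirp2* at 1.48 and *Ankrd23* at 1.41, both called, and *Csrp3* at 0.22 and *Ankrd1* at 0.21, neither called. *Sorbs2* and *Xirp2* have over 8 kb of exons and under 45% GC. In the 960 such genes that averaged 10 or more, the correction moved the median log2 fold change from 0.08 to -0.16, past 0. Whether it corrects *Sorbs2* and *Xirp2* too far was not tested.

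Levels between genes were compared per kb of summed exons, a scale on which genes with many alternative exons such as *Sorbs2* read low. In DMSO the normalized reads per kb fell from *Actn2* at 610.5 ± 14.01 through *Ldb3* (480.1), *Ankrd1* (461), *Xirp1* (431), *Csrp3* (232), *Tcap* (218), *Myoz2* (179), *Sorbs2* (151) and *Xirp2* (129.6) to *Ankrd23* at 10.01. The ranges of neighbours in this order overlapped only for *Sorbs2* and *Xirp2*. In αKG *Xirp2*, at 431 ± 146 reads per kb, ranked 4 in place of 9. Its range of 265.6 to 543 overlapped those of both neighbours, *Ldb3* and *Xirp1*, and also those of *Ankrd1* and *Csrp3*. *Ankrd1* passed *Ldb3* and ranked 2 at 567 ± 27.9. The range of *Ankrd1* did not overlap those of its neighbours in rank, *Actn2* and *Ldb3*.

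Pairs of related genes were then compared inside a library, where the scaling of the library drops out, and 5 of the 6 pairs tested are described. The log2 ratio of *Xirp1* to *Xirp2* was 1.03, 0.48 and 0.64 in DMSO and -1.29, -1.59 and -0.37 in αKG, so *Xirp1* had more reads in every DMSO library and *Xirp2* in every αKG library. The mean difference was -1.80 on the log2 scale. The ratio of *Ankrd1* to *Ankrd23* shifted by -1.10, as *Ankrd23* gained more. *Csrp3* against *Csrp2*, a relative known from smooth muscle, shifted by 0.40. *Ldb3* against *Pdlim5*, another PDZ and LIM protein of the Z-disc, shifted by -0.20. These 4 ratios did not overlap between the groups, and each had an exact two-sided permutation p of 0.1, the smallest that 3 against 3 libraries can give (0.12 adjusted over the 6 pairs). *Actn2* against the non-muscle *Actn1* shifted by -0.05 with overlapping groups (exact permutation p = 0.5, also 0.5 adjusted).

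**Figure D4:**
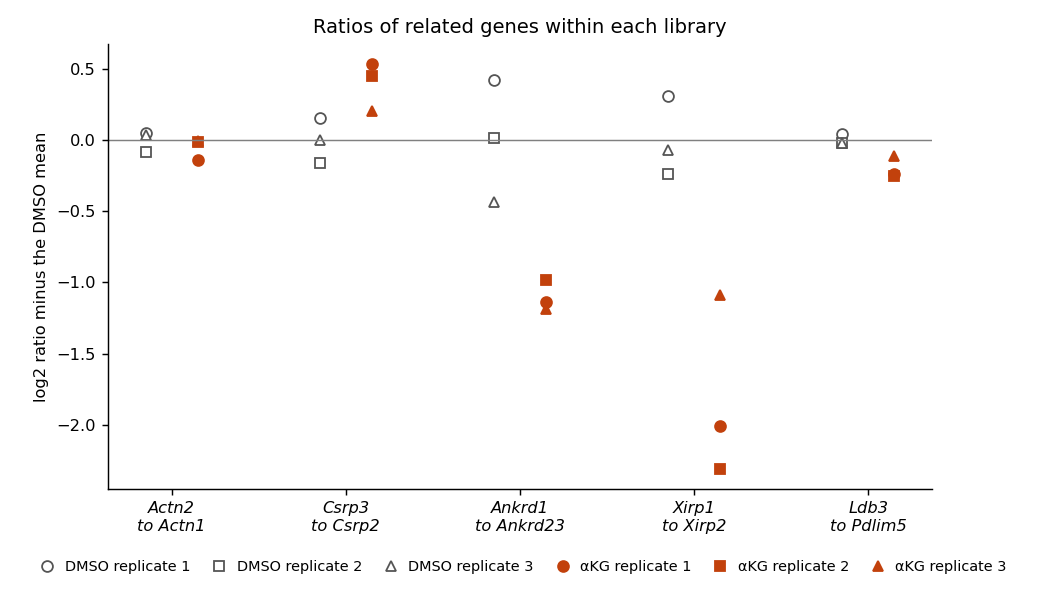
Log2 ratio of 5 pairs of related genes in each library, drawn relative to the DMSO mean of that ratio, with DMSO as open and αKG as filled symbols. The ratio of *Xirp1* to *Xirp2* falls the farthest, by 1.80 on average, and only the ratio of *Actn2* to *Actn1* overlaps between the groups.

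Other Z-disc genes were taken from a list of 56, of which 53 were in the table. Of these, 8 rose and 1 fell (17.0% of the 53 passed, against 3.78% of all genes and 5.96% of those that averaged 100 or more). In αKG 21 lay wholly higher and 7 wholly lower, against 13.7% and 14.6% of all genes. Their median log2 fold change was 0.13, against 0.04 for all genes. *Synpo*, which encodes the actin-bundling synaptopodin, went from 348 ± 35.3 to 776 ± 132 normalized reads (log2 fold change 1.14 ± 0.13, limma adjusted p = 0.00624). *Synm*, for the intermediate filament protein synemin, went from 229 ± 17.3 to 411 ± 30.7 (0.84 ± 0.10, limma adjusted p = 0.00625). *Cavin4*, for a muscle protein of caveolae also found at the Z-disc, had 101, 120 and 135 reads in DMSO and 271, 343 and 248 in αKG (1.26 ± 0.15, limma adjusted p = 0.00696). In these 3 genes the lowest αKG library was well above the highest DMSO library, αKG replicate 3 included.

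The other risers of this list were *Pdlim3* (log2 fold change 0.75), whose protein binds α-actinin, *Nrap* (0.46), a scaffold of growing myofibrils, *Lmcd1* (0.97), for a protein with LIM domains, *Flnc* (0.36), the muscle filamin, and *Fhl1* (0.93), a LIM protein linked to stretch sensing. *Smtnl2*, a relative of smoothelin, fell by 0.68 on the log2 scale. *Ttn*, for titin, the gene of this list with the most reads, did not pass and had 51569, 54216 and 53157 normalized reads in DMSO and 80306, 84136 and 55569 under αKG (0.45 ± 0.13 on the log2 scale, limma adjusted p = 0.073). Among the 14 listed relatives of the members, drawn partly from the same list, *Pdlim3* alone rose and none fell. That is 7.14% of the 14, against 3.78% of all genes and 5.96% of those that averaged 100 or more. *Actn1* at 0.18, *Pdlim5* at 0.06 and *Csrp2* at -0.09 on the log2 scale did not pass and had overlapping groups. Without αKG replicate 1 or 2, or without DMSO replicate 2 or 3, no gene of these lists was called, and without DMSO replicate 1 the Z-disc list had 3 calls, whereas without αKG replicate 3 it had 36, of which 23 were higher and 13 lower, against 37.2% of all genes.

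**Figure D5:**
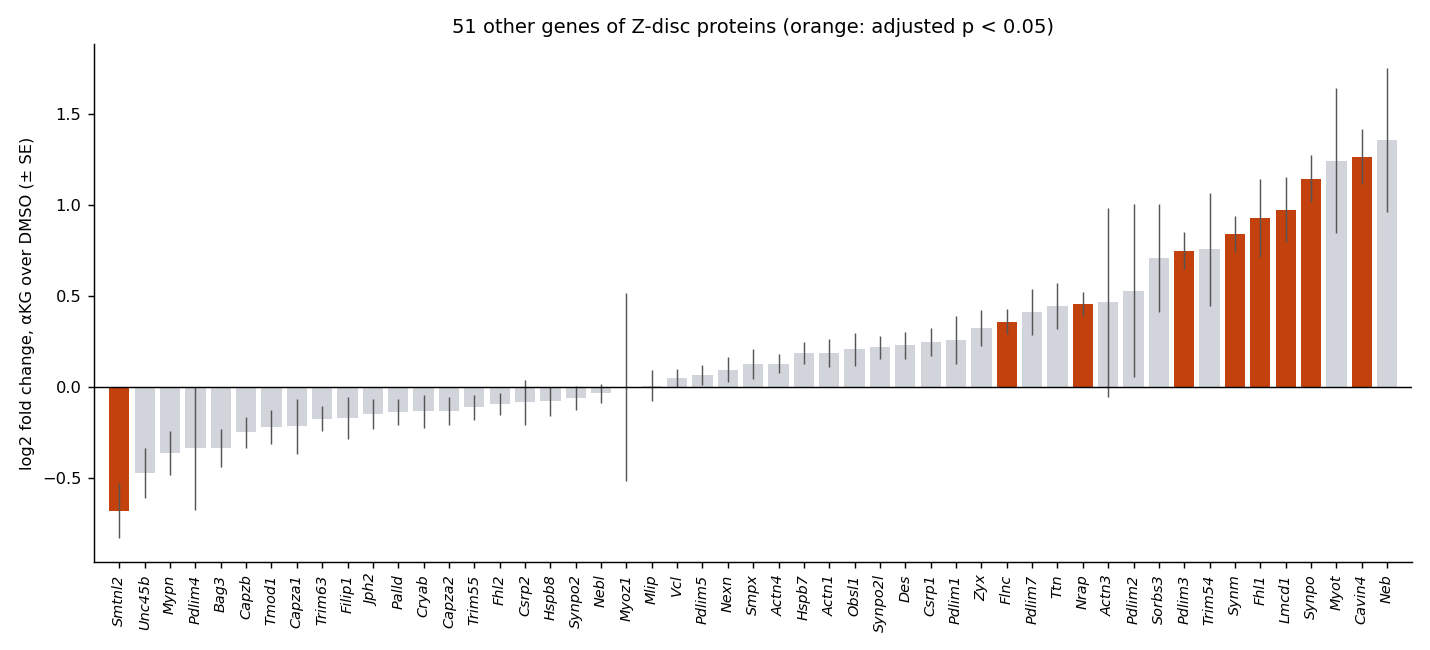
Log2 fold change of 51 of the 53 other Z-disc genes in the table, ordered by value, as bars with the SE as lines and in orange where the limma adjusted p is under 0.05. Of the orange bars 8 lie above 0, up to *Cavin4* at 1.26, and *Smtnl2* at -0.68 is the 1 below.

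Genes known to respond to stretch or load were listed separately, and 29 of 30 were in the table. Of these, 5 rose and none fell (17.2% of the 29, against 3.78% of all genes and 5.96% of those that averaged 100 or more). The risers were *Acta1*, for skeletal α-actin, *Myh7*, for the slow myosin heavy chain, *Nppb*, for brain natriuretic peptide, *Ccn2*, a matricellular growth factor, and *Hbegf*, a ligand of the epidermal growth factor receptor. *Hbegf* had 346, 323 and 344 normalized reads in DMSO and 497, 533 and 416 in αKG, with no overlap (0.51 ± 0.10 on the log2 scale, limma adjusted p = 0.0367). *Ccn2* had 675, 706 and 696 in DMSO and 1150, 1184 and 805 in αKG, again with αKG replicate 3 nearest to DMSO (0.57 ± 0.13, limma adjusted p = 0.0454). *Acta1* (log2 fold change 2.25), *Myh7* (1.88) and *Nppb* (1.63) had the largest changes of the 5. Over the whole list, 9 genes lay wholly higher and 5 wholly lower in αKG, against 13.7% and 14.6% of all genes. In all, 19 had a positive and 10 a negative log2 fold change, with a median of 0.11 against 0.04 for all genes. Among those wholly lower, *Egr1*, an immediate early gene, stood at -0.34 on that scale (limma adjusted p = 0.0536). The 5 calls became 2 without DMSO replicate 1 and 0 without any other single library except αKG replicate 3, where they became 16, with 12 higher and 4 lower, and 37.2% of all genes were called.

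Because calsarcin-1 holds calcineurin at the Z-disc, 20 genes of calcineurin and NFAT signalling were examined, and 0 passed limma at an adjusted p under 0.05. At an unadjusted p under 0.05 there were 7, of which 2 were higher and 5 lower (28.1% of all genes reached this), and limma-voom on estimated reads called 1, as lower. In αKG 1 lay wholly higher and 8 wholly lower, against 13.7% and 14.6% of all genes. In all, 4 had a positive and 16 a negative log2 fold change, with a median of -0.09 against 0.04 for all genes. *Rcan1*, whose calcineurin-induced product binds the phosphatase, had 443, 458 and 455 normalized reads in DMSO and 638, 717 and 504 in αKG, with no overlap (0.44 ± 0.12 on the log2 scale, limma adjusted p = 0.0641). *Akap13*, for an anchoring protein, differed by -0.20 ± 0.05 (limma adjusted p = 0.0548), and *Nfatc1*, for an NFAT factor, by -0.35 ± 0.11 (limma adjusted p = 0.084). Without αKG replicate 3, 10 of the 20 were called, 3 higher and 7 lower, against 37.2% of all genes.

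The genes most like *Ankrd1*, *Actn2* and *Xirp2* over the 6 libraries were looked up among genes of that same minimum mean of 100, by Pearson's r of the log2 values, *Xirp2* having been added after its values were seen. *Ankrd1* was closest to *Cask* (r = 0.999), *Acta1* (0.998) and *Slitrk4* (0.997), *Actn2* to *Sfpq* (0.999), *Aldh1l2* (0.996) and *Snd1* (0.995), and *Xirp2* to *Clip1* (0.999), *Myh7* (0.998) and *Enah* (0.998). High values were not confined to these genes. At the looser cut of 0.95, 211, 254 and 252 of 8294 genes passed with *Ankrd1*, *Actn2* and *Xirp2*. Genes at the higher values quoted were not counted. For *Xirp2* the likeness includes the middle place of αKG replicate 3, since *Myh7* had 453, 641 and 550 normalized reads in DMSO and 2535, 2732 and 1157 in αKG.

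Promoter sequence was read for every member with a window, whichever way it moved, to show which letters known from muscle genes stand before their starts. RefSeq starts (GRCm38.p6) gave 13 windows of 250 bases for 8 members. Both strands were searched for 5 motifs. M-CAT, the site of TEAD factors, was read as CATTCC. The letters taken for GATA factors were AGATAA. For AP-1 the search used TGANTCA. The CArG box of serum response factor and the MEF2 site were searched as well, and no matches overlapped. Of all 32851 windows of this length, 12.6% held M-CAT, 9.99% GATA, 6.75% AP-1, 1.47% a CArG box and 0.508% a MEF2 site, and of the 13 member windows these were in 2, 2, 3, 2 and 2. The windows of the 2 *Ldb3* starts overlap and share 1 AP-1 and 1 CArG match, which are counted in both. The windows before the start of *Xirp2*, which lies inside the gene's annotated span, and before a start of *Ankrd23* are given whole because these genes rose most and no annotated exon lies in them. The others are stretches around matches. Each reads 5′ to 3′ on the gene's strand, with the matches in capitals.
Xirp2 window, chr2:67445752-67446001, plus strand: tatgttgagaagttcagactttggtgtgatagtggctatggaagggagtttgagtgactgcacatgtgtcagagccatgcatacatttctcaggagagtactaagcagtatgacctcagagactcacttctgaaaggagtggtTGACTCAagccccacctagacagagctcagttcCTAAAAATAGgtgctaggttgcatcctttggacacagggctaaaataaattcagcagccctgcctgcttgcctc
Ankrd23 window, chr1:36535740-36535989, minus strand: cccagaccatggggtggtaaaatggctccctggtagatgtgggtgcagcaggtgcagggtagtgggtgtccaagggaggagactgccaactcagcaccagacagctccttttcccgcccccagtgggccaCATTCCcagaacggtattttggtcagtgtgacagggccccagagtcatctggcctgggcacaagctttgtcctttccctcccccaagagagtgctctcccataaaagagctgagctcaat
Ankrd1 M-CAT, chr19:36119952-36119977, minus strand: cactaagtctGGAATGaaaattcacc
Ankrd1 second M-CAT, chr19:36120039-36120064, minus strand: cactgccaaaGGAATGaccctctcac
Ldb3 CArG box, chr14:34588697-34588726, minus strand: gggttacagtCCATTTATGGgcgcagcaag

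In the *Xirp2* window the capitals are AP-1, 107 bases before the start at its far end, and a MEF2 site at 74 bases. In the *Ankrd23* window they are M-CAT at 120 bases, and the window of another *Ankrd23* start held a GATA match at 216 bases. *Ankrd1* held M-CAT in reverse at 123 and at 210 bases and a GATA match at 47. *Ldb3* held its CArG box at 35 bases from 1 of its starts. The windows of *Actn2*, *Csrp3* and *Sorbs2* held no match. *Ldb3* also held AP-1. A match describes the letters only.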

How the data were processed

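Total RNA was sequenced in 3 DMSO and 3 αKG libraries. Per the study's methods and processing notes, the authors used Trimmomatic 0.39 for trimming, STAR 2.7.10a for alignment to mm10 (GRCm38.p5), featureCounts 2.0.3 for counting exon reads per gene, without reads that fit several genes or sites, and DESeq2 1.30.1. The deposited values are treated as a score: normalized read counts, that is reads that the authors scaled by each library's size factor and rounded, with genes listed only where some library reached 2. The value of 1 read, 0.9258 to 1.1188, was estimated from gaps between low values. As PCR copies were not marked by molecular identifiers, reads are not independent molecules and counting error is a lower limit. Reads of near-identical genes may have been dropped in counting.

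Groups came from the labels. Log2(value + 1), which understates changes of low genes, was fitted for all 20066 genes with limma 3.58.1 (R 4.3.3), treatment as the only term and a variance trend, with Benjamini-Hochberg adjustment and a threshold of 0.05. The design assumed such values, so no count model was used. The fit was tested on simulated data. Ratios were tested by exact permutation over libraries (scipy 1.17.1). Exon lengths and GC content came from GENCODE M21, in which 99% of positions were the same, and promoters from RefSeq. Length covered all exons of a gene, whereas GC was that of its longest transcript. All members were named, with the called genes of each list or, where none or more than 6 were called, the 3 with the smallest p and the 3 highest, of which some are left out of the text. The members and lists were chosen with earlier results of these data known. *Egr1* and *Gm45457* were named after their values were seen. Results for 2 genes and 1 sequence are not reported here.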

Additional observations from a re-analysis of the deposited data

How the results depend on the processing

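The 5 members called became 4 with a pseudocount of 0.1 or limma-voom, 3 relative to the CM markers, 0 without the variance trend or with DMSO replicates 2 and 3 averaged, 2 with the length and GC correction, 8 at an unadjusted p under 0.05 and 2 with a fold of at least 2. Leaving out 1 library gave 0 to 9. For the other Z-disc genes (9 called) these were 0 without the trend, 0 averaged, 31 unadjusted, 2 at 2-fold and 0 to 36 leaving out 1 library. For the relatives (1 called) they were 0, 0, 7, 0 and 0 to 8. For the stretch genes (5 called) they were 0, 0, 15, 3 and 0 to 16, with 3 for a pseudocount of 0.1 and 3 for limma-voom. For the calcineurin and NFAT genes (0 called) there were 1 with equal totals, 1 with quantile normalization, 1 with limma-voom, 2 with the length and GC correction, 7 unadjusted and 0 to 10 leaving out 1 library.

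Whether replicate numbers pair the libraries is not known. Same-numbered deviations from the group means correlated at -0.08, 0.167 and 0.0007. As αKG replicate 3 dominated the spread of its group, these values cannot decide whether the libraries were paired. With the number as a replicate block, 0 members, 1 other Z-disc gene, 0 relatives, 2 stretch genes and 0 calcineurin genes were called, against 46 genes in all. With the block and the length and GC correction these were 2, 13, 1, 9 and 4, against 1692 in all.

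The direction turned in 4 of 190 values of members and 6 of 475 of other named genes. With length and GC corrected, with or without the block, the log2 fold change of *Myoz2* came to -0.0304, that of *Sorbs2* to -0.0227, of *Nfat5* to -0.0511 and of *Pdlim5* to -0.0694, and *Pdlim5* was also -0.00961 under quantile normalization and -0.0609 relative to the CM markers. The length and GC settings were chosen after seeing the data, and the cause of these moves was not tested. No ratio turned. Of all genes, 759 were called, and 27 without the trend, 338 with limma-voom, 346 with a pseudocount of 0.1, 19 averaged, 1238 with length and GC corrected and 0 to 7466 leaving out 1 library. The share of calls that were higher was 74.8%, and it was 66.3% with equal totals, 60.1% relative to the CM markers, which moved the median of all genes from 0.04 to -0.09, and 42.7% with length and GC corrected. Among members, *Ankrd23* is limited by depth.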
